A study of Mus musculus with 9 samples.

Results

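The circadian clock genes described here were 10 genes, Nr1d1, Nr1d2, Dbp, Tef, Hlf, Per1, Per3, Arntl, Cry1 and Nfil3, of 18325 genes with values among 22064 listed. They were chosen by name, in a set selected on the lower counts of Nr1d1 and Dbp in metastatic than in normal lung. Their levels against normal lung are therefore a description. A count of the genes past the threshold against normal lung is given without reading it as a test. Of the 10 genes only the contrast between both groups from metastatic lung is given with tests. All 10 had values, and all 10 passed the filter on low counts, which left 14108 genes. Without the normal lung libraries Nr1d1 and Dbp did not pass it, so a member that passed only through the group where it was high had to differ. The data were 9 bulk RNA-seq libraries of lung neutrophils from female BALB/c mice, 3 from each of 3 groups. Ly6Ghi and Ly6Glow were CD45+ neutrophils sorted by surface Ly6G from lungs with macrometastases, collected in the fourth week or later after 4T1-LM3 cells were injected orthotopically into the mammary fat pad. The 4T1-LM3 line is a mouse mammary carcinoma line selected in vivo for metastasis to lung. NL were Ly6Ghigh neutrophils from normal lung, sorted through the same CD45+ gate, and lungs were digested with collagenase before sorting. Mice were kept under a light and dark cycle, but the hour of collection, the age at collection and the pooling of mice were not given in the sources used here. The hour of collection and the group cannot be told apart. The description field of the NL libraries names the Ly6Ghigh group alone, so that their assignment to normal lung rests on title and treatment.

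The libraries held from 15267177 to 17841807 estimated counts each. Levels are given as CPM, counts scaled to a common library size with TMM factors of edgeR (0.803 to 1.32). A count of 0 allows up to 3 counts, which was 0.135 to 0.244 CPM, and this floor covers counting error alone. Replicate libraries differed beyond sampling noise, with a chi-square per degree of freedom of 1.41 to 2.5 for pairs within Ly6Ghi or Ly6Glow. It was 1.49 between NL replicates 1 and 3, but 5.3 and 4.05 for the pairs with NL replicate 2. Folds against NL are therefore also given without NL replicate 2, as each library was left out in turn. The 10 neutrophil markers summed to 84500, 82300 and 83000 CPM in Ly6Ghi, 76200, 78000 and 77600 CPM in Ly6Glow and 19400, 19300 and 19100 CPM in NL. S100a9 was the highest of them in CPM, but in Ly6Ghi S100a8 was higher by its mean FPKM (65200 against 63300). The neutrophil sum was thus 4.32-fold higher in Ly6Ghi and 4.01-fold higher in Ly6Glow than in NL. Ly6g itself had 380, 361 and 380 CPM in Ly6Ghi, 385, 403 and 394 CPM in Ly6Glow and 120, 120 and 118 CPM in NL. The NL libraries lay lowest. The Ly6Glow libraries lay above the Ly6Ghi libraries by a log2 difference of 0.08 (edgeR quasi-likelihood test with Benjamini-Hochberg adjusted p = 0.0603, not called). That order turned on FPKM, with 414, 396 and 417 in Ly6Ghi against 358, 373 and 366 in Ly6Glow. Which of these groups was higher thus depended on the scaling, and the difference was small on both scales. Close relatives of Ly6g also leave its counts uncertain.

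In the mammalian clock, the proteins of Arntl (BMAL1) and Clock form a complex that binds E-boxes and activates the Per and Cry genes, whose proteins return to repress it. A further loop is set by the nuclear receptors Nr1d1 and Nr1d2 (REV-ERB alpha and beta), which repress Arntl and Nfil3 at ROR elements. The bZIP activators Dbp, Tef and Hlf and the repressor Nfil3 compete at D-boxes, and the clock of neutrophils is known for the daily timing of their ageing and entry into tissue.

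Promoter windows of 250 bases before to 50 bases after the start site (RefSeq, GRCm38.p6, the mm10 build) were found for all 10 genes, 13 windows in all, and were searched on both strands for the 3 motifs of these loops. The E-box CACGTG was in 4 windows of 3 genes (Tef, Per1 and Cry1) and in 7.15% of 32851 windows of all genes. The D-box TTANGNAA was in 3 windows (Per1, Per3 and Arntl) and in 11.5% of all windows. The ROR core AGGTCA, which reads TGACCT on the other strand, was in 4 windows (Nr1d2, Per1, Arntl and Nfil3) and in 16.3% of all windows. The first Per1 window held all 3 motifs, with the E-box at -166, the ROR core at -137 and the D-box at -24 from the start site. No match was found in the Nr1d1, Dbp and Hlf windows, which says only that these letters are not there. A match is a description and not a binding site. Printed here are windows of genes that were higher in Ly6Glow (Per1, Nfil3) and of genes that were low in both metastatic groups (Tef, Per3, Nr1d1, Dbp), 5′ to 3′ along the gene, with motif letters in capitals.
Per1 (chr11:69098699-69098998, + strand): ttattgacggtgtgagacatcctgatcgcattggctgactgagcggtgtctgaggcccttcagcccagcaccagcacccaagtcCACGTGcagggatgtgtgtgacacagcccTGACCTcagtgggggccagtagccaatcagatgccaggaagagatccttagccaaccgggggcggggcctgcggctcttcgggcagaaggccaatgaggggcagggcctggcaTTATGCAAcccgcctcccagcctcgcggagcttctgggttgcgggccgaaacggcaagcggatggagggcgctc
Tef (chr15:81811164-81811463, + strand): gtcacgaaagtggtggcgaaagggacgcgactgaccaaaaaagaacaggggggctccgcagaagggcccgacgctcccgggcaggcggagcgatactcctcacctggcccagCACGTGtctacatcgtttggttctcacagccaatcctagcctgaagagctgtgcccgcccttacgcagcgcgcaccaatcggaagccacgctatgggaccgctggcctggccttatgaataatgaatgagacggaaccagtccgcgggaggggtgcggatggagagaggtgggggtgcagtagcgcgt
Per3 (chr4:151044616-151044915, - strand): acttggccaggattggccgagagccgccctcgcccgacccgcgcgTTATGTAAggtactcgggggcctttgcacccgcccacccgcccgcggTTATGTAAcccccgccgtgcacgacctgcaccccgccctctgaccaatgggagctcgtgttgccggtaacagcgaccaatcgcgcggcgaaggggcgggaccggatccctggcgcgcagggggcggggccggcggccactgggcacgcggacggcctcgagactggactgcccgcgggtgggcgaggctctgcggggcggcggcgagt
Nfil3 (chr13:52980990-52981289, - strand): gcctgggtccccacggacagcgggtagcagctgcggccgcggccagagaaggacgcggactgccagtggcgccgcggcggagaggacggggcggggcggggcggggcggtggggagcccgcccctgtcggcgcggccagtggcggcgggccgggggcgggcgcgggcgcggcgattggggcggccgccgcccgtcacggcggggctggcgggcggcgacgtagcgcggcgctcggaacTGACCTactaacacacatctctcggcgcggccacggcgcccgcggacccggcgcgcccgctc
Nr1d1 (chr11:98775328-98775627, - strand): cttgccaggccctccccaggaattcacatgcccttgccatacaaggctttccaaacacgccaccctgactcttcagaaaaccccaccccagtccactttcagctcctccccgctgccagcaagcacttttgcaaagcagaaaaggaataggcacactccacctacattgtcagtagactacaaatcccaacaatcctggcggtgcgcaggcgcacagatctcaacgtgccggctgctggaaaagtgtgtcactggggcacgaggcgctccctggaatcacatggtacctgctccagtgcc
Dbp (chr7:45704997-45705296, + strand): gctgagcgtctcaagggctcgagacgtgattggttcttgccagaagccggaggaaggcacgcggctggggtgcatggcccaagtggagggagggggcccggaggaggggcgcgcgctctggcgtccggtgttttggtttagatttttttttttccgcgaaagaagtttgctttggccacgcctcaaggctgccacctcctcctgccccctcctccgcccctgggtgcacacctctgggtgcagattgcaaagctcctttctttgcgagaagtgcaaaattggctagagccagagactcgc

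The repressors of the REV-ERB loop had nearly vanished from the libraries of metastatic lung. Nr1d1 had 34.4, 32.1 and 36.2 CPM in NL, 0.554, 0.767 and 1.05 CPM in Ly6Ghi and 0.569, 0.602 and 0.686 CPM in Ly6Glow. Every NL library lay far above every library of both metastatic groups, in which Nr1d1 rested on 7 to 17 counts against 703 to 804 in NL. The fitted fold was 42.9-fold lower in Ly6Ghi and 54.6-fold lower in Ly6Glow than in NL, and 44.1-fold and 56.2-fold lower without NL replicate 2. In bulk RNA, fewer cells of a type and less RNA per cell cannot be told apart. Nr1d2 had 47.6, 56.4 and 51.8 CPM in NL, 2.65, 2.36 and 3.16 CPM in Ly6Ghi and 2.84, 2.56 and 2.29 CPM in Ly6Glow. The paralog thus showed the same separation, with metastatic groups that overlapped each other, and was 19.1-fold lower in Ly6Ghi and 20.2-fold lower in Ly6Glow than in NL (18.2-fold and 19.3-fold without NL replicate 2). Among 14108 tested genes ordered from the largest decrease, Nr1d1 stood at rank 18 and Nr1d2 at rank 99 in Ly6Ghi over NL, and at ranks 58 and 180 in Ly6Glow over NL. The fall of Nr1d1 was used to choose these genes, so that these ranks are a description alone.

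**Figure D1:**
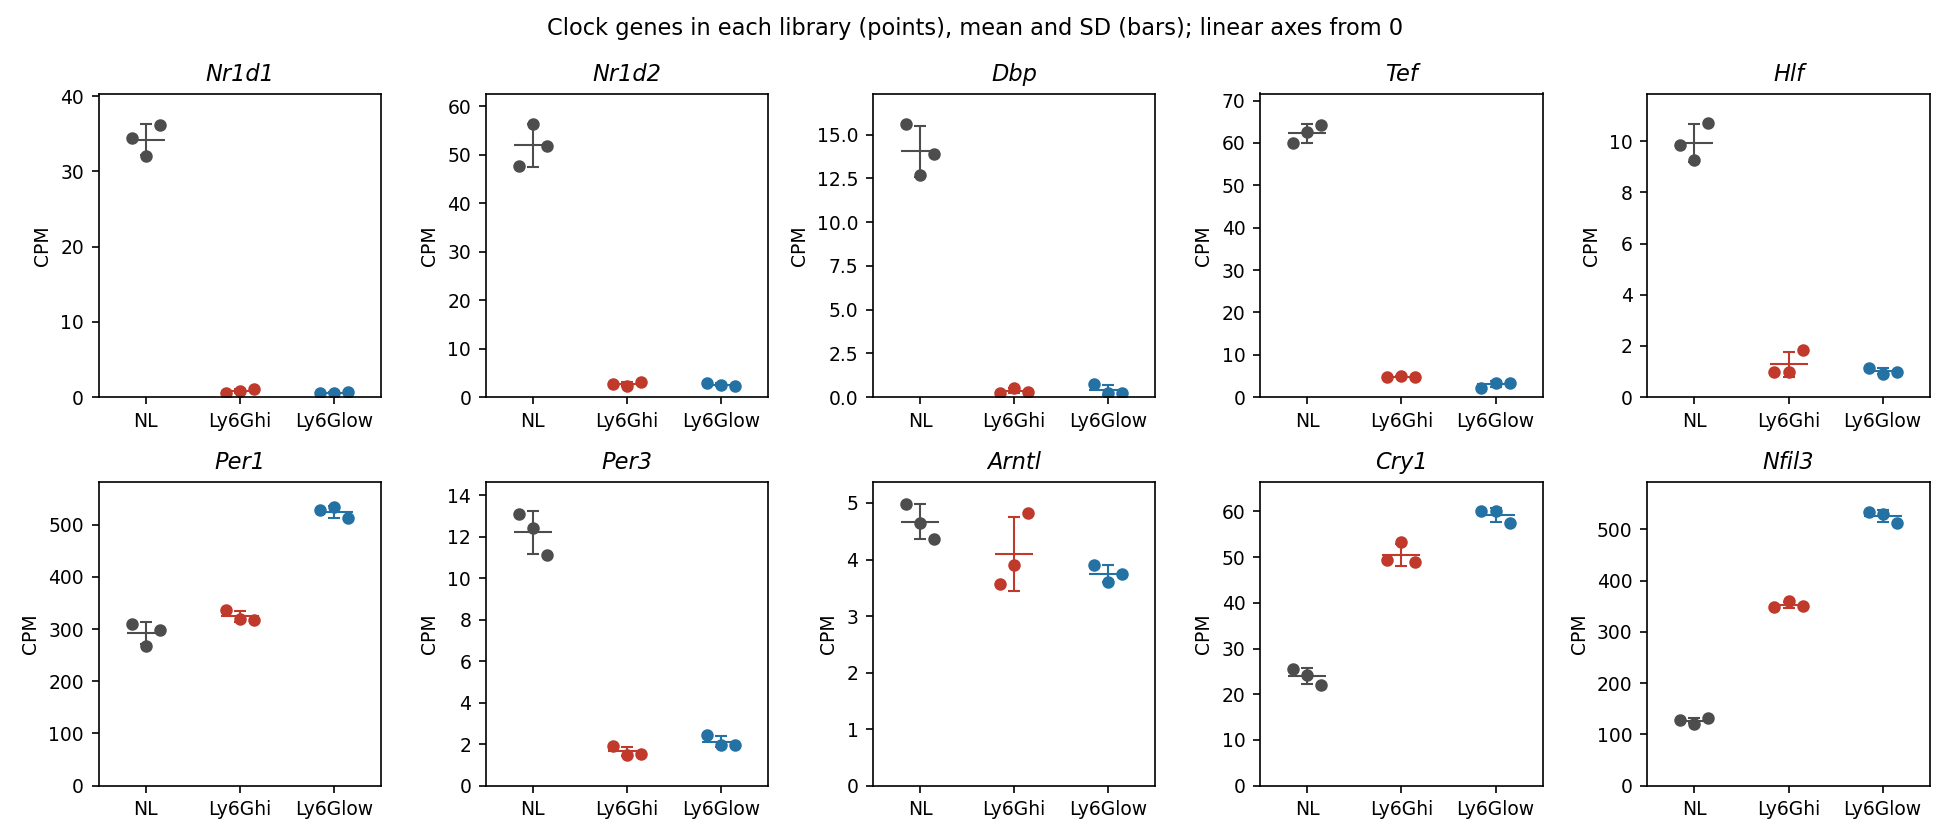
Level of each of the 10 clock genes in CPM (vertical axis, linear from 0) in the 3 libraries of NL, Ly6Ghi and Ly6Glow (points), with the mean and SD as bars (n = 3). Nr1d1, Nr1d2, Dbp, Tef, Hlf and Per3 sit low in both metastatic groups (Nr1d1 at 0.554 to 1.05 CPM against 32.1 to 36.2 CPM in NL), while Nfil3 sits high (349 to 535 CPM against 121 to 132 CPM).

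The D-box activators Dbp, Tef and Hlf were low in the same libraries. Dbp had 15.6, 12.7 and 13.9 CPM in NL, 0.246, 0.531 and 0.309 CPM in Ly6Ghi and 0.731, 0.226 and 0.229 CPM in Ly6Glow. The values of both metastatic groups lay near the floor, on 3 to 9 counts per library against 279 to 348 in NL, and their order among themselves cannot be read at this depth. Dbp was 37.9-fold lower in Ly6Ghi and 35.7-fold lower in Ly6Glow than in NL (39.6-fold and 37.4-fold without NL replicate 2). It stood at ranks 21 and 79 of the decreases, a description alone, since its fall was also used to choose these genes. The size of the fold in Ly6Glow depended on single libraries, as the log2 difference of -5.16 was -5.90 without Ly6Glow replicate 1 and -4.87 without Ly6Glow replicate 2. Tef, the most abundant of the 3 activators in NL, had 59.9, 62.6 and 64.3 CPM there, 4.74, 5.02 and 4.77 CPM in Ly6Ghi and 2.27, 3.46 and 3.43 CPM in Ly6Glow. The 3 groups did not overlap, with NL highest and Ly6Glow lowest, and Tef was 12.8-fold lower in Ly6Ghi and 20.2-fold lower in Ly6Glow than in NL (12.8-fold and 20.1-fold without NL replicate 2). Hlf had 9.84, 9.26 and 10.7 CPM in NL, 0.984, 1.00 and 1.86 CPM in Ly6Ghi and 1.14, 0.903 and 0.991 CPM in Ly6Glow. Ly6Ghi and Ly6Glow overlapped, and Hlf was 7.74-fold and 9.79-fold lower than in NL (7.97-fold and 10.1-fold without NL replicate 2).

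Nfil3, the repressor that competes with these activators at D-boxes, had the opposite order. It had 128, 121 and 132 CPM in NL, 349, 360 and 351 CPM in Ly6Ghi and 535, 531 and 512 CPM in Ly6Glow. The 3 groups did not overlap, and Nfil3 was 2.79-fold higher in Ly6Ghi and 4.15-fold higher in Ly6Glow than in NL. Its log2 differences of 1.48 and 2.05 were 1.45 and 2.02 without NL replicate 2, and 1.02 and 1.36 on log2(FPKM + 1). The log2 ratio of Nfil3 to Dbp counts within a library, which does not depend on the scaling of libraries, was 3.17 ± 0.115 in NL, 10.01 ± 0.549 in Ly6Ghi and 10.61 ± 0.956 in Ly6Glow (mean ± SD, n = 3). The fall of Dbp was used to choose these genes, so that the difference of this ratio from NL restates it in part. The low counts of Dbp set the spread of this ratio in the metastatic groups, where Ly6Ghi (9.4 to 10.47) and Ly6Glow (9.51 to 11.2) overlapped.

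The Period genes, which encode repressors of the BMAL1 complex, parted from each other. Per3 had 13.1, 12.4 and 11.1 CPM in NL, 1.91, 1.48 and 1.55 CPM in Ly6Ghi and 2.44, 1.96 and 1.98 CPM in Ly6Glow. It lay with the low genes in both metastatic groups, which did not overlap each other in CPM but did in FPKM, at 7.4-fold lower in Ly6Ghi and 5.74-fold lower in Ly6Glow than in NL (7.32-fold and 5.69-fold without NL replicate 2). Per1, which is also induced directly by glucocorticoids and other acute signals, had 310, 268 and 299 CPM in NL, 337, 320 and 317 CPM in Ly6Ghi and 528, 533 and 512 CPM in Ly6Glow. Ly6Glow stood apart and high, while Ly6Ghi lay just above NL with a log2 difference of 0.15, which changed sign to -0.30 on log2(FPKM + 1) and to -0.04 with upper-quartile scaling. In Ly6Glow over NL the log2 difference of Per1 was 0.84, and 0.14 on log2(FPKM + 1). Without NL replicate 2, the lowest NL library for Per1, these log2 differences on counts were 0.10 and 0.79. The log2 ratio of Per1 to Per3 counts within a library was 4.59 ± 0.162 in NL, 7.63 ± 0.155 in Ly6Ghi and 7.95 ± 0.172 in Ly6Glow, so that the genes of this pair changed unequally.

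Cry1, the partner of the Period proteins, had 25.6, 24.2 and 22.1 CPM in NL, 49.3, 53.3 and 48.9 CPM in Ly6Ghi and 60.1, 60.1 and 57.4 CPM in Ly6Glow. Each group lay in a range of its own, and Cry1 was 2.11-fold higher in Ly6Ghi and 2.47-fold higher in Ly6Glow than in NL (log2 differences of 1.08 and 1.30, and of 1.09 and 1.32 without NL replicate 2). On log2(FPKM + 1) these differences of Cry1 were 0.57 and 0.56, under the fold threshold of 0.58, and on log2(FPKM + 0.1) they were 0.61 and 0.60, past it. Arntl, which encodes the activator BMAL1, had 4.99, 4.65 and 4.37 CPM in NL, 3.57, 3.90 and 4.83 CPM in Ly6Ghi and 3.90, 3.61 and 3.74 CPM in Ly6Glow. Arntl had log2 differences from NL of -0.19 in Ly6Ghi, where the libraries overlapped those of NL, and -0.32 in Ly6Glow, both unchanged without NL replicate 2. On log2(FPKM + 1) they were -0.43 and -0.60, and on log2(FPKM + 0.1) -0.64 and -0.92, so that how far Arntl lay below NL depended on the scaling. On counts it lay nearest of the 10 genes to the median of all genes in both comparisons with NL, whereas on log2(FPKM + 1) Per1 was nearer in Ly6Ghi over NL (0.02 from the median against -0.10 for Arntl).

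Levels of different genes were compared per length, as mean FPKM over 3 libraries. In NL the order ran from Nfil3 (82.4) and Per1 (81.7) to Tef (19.2), Nr1d1 (16.5), Nr1d2 (14.8), Dbp (11.5), Cry1 (10.5), Per3 (2.74), Hlf (2.36) and Arntl (2.23). Nfil3 and Per1, Nr1d1 and Nr1d2, Dbp and Cry1, and Hlf and Arntl overlapped in their libraries and could not be ordered. In Ly6Ghi the order was Nfil3 (168), Per1 (65.9), Cry1 (16.1), Arntl (1.41), Tef (1.10) and Nr1d2 (0.56), followed by Nr1d1 (0.27), Per3 (0.263), Hlf (0.217) and Dbp (0.213), which overlapped each other. The Ly6Glow order began with Nfil3 (213), Per1 (90.3), Cry1 (16.0) and Arntl (1.13). There Tef (0.563) overlapped Nr1d2 (0.45), and each of Per3 (0.287), Dbp (0.22), Nr1d1 (0.183) and Hlf (0.15) overlapped its neighbor. Tef, Nr1d1, Nr1d2, Dbp and Per3 thus stood above Arntl in NL and below it in both metastatic groups with no overlap, and Hlf did so by its mean alone, since it overlapped Arntl in NL.

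As a description of a contrast that the choice of the genes used, and not as a test, 2 of the 10 genes were past the threshold higher (26.3% of all tested genes were) and 6 lower (36.6%) in Ly6Ghi over NL. Nr1d1 and Dbp, whose fall chose the set, were among the 6. The threshold joined an adjusted p no higher than 0.05 to a log2 fold change of more than 0.58 in either direction. Libraries of both groups did not overlap for 9 of the 10, as for 85.2% of all tested genes. In Ly6Glow over NL, which shares the NL libraries, 3 were past it higher (28.6%) and 6 lower (40.8%), and all 10 did not overlap (86.8%). On log2(FPKM + 1) Cry1 was under the fold threshold in both comparisons (0.57 and 0.56) and Per1 in Ly6Glow over NL (0.14), while Arntl in Ly6Glow over NL (-0.60) was past it. On log2(FPKM + 0.1) Cry1 (0.61 and 0.60) and Arntl (-0.64 and -0.92) were past the fold threshold in both comparisons, and Per1 in Ly6Glow over NL (0.15) was under it. Nothing is read from these counts. The median log2 fold change of the 10 genes was -2.92 in Ly6Ghi over NL and -2.91 in Ly6Glow over NL, beside -0.09 and -0.16 over all tested genes.

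Markers of other lung cells differed between the same groups, although all 3 had passed a CD45+ gate, a marker that epithelial, endothelial and fibroblast cells lack, and their part in the differences of the clock genes was not tested. The 12 epithelial markers, with Sftpc the most abundant, summed to 1680, 1530 and 1660 CPM in NL, 154, 154 and 147 CPM in Ly6Ghi and 157, 159 and 153 CPM in Ly6Glow. All 12 were called lower in Ly6Ghi over NL and 11 of 12 in Ly6Glow over NL (36.6% and 40.8% of all tested genes). Bpifa1 and Foxj1 were at or under the floor in both metastatic groups. The epithelial sum was thus 10.7-fold higher in NL than in Ly6Ghi and 10.4-fold higher than in Ly6Glow. The 9 endothelial markers summed to 1320, 1270 and 1300 CPM in NL, 192, 192 and 197 CPM in Ly6Ghi and 235, 238 and 233 CPM in Ly6Glow. Pecam1 led in both metastatic groups. In NL Calcrl led by mean CPM (261 against 255 for Pecam1, with libraries that overlapped), but Pecam1 led by mean FPKM (103 against 72.8). The 9 fibroblast and smooth muscle markers, led in CPM by Col3a1, summed to 636, 606 and 639 CPM in NL, 72.8, 65.2 and 66.1 CPM in Ly6Ghi and 74.6, 76.8 and 69.9 CPM in Ly6Glow. By mean FPKM Acta2 was above Col3a1 in Ly6Ghi (6.46 against 2.97) and Ly6Glow (6.44 against 2.63). All 9 endothelial and all 9 fibroblast and smooth muscle markers were called lower in both comparisons with NL (36.6% and 40.8% of tested genes). None was at or under the floor in all 3 libraries of a group, although Lum had 2 and 3 counts in Ly6Glow replicates 2 and 3.

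Among blood and immune lists, the 7 dendritic cell markers summed to 48.2, 49.6 and 53.6 CPM in NL, 16.6, 15.6 and 14.4 CPM in Ly6Ghi and 16.7, 15.4 and 15.3 CPM in Ly6Glow. By mean CPM Ccr7 led in NL and Ly6Ghi, while in Ly6Glow Clec9a and Zbtb46 both averaged 4.42 CPM and overlapped. By mean FPKM Zbtb46 was above Clec9a in Ly6Glow (1.22 against 1.13). All 7 dendritic cell markers were called lower in both comparisons with NL (36.6% and 40.8% of all tested genes). The 11 alveolar macrophage markers, led by Chil3, summed to 1760, 1760 and 1740 CPM in NL and 1580, 1520 and 1530 CPM in Ly6Ghi, but to 326, 347 and 334 CPM in Ly6Glow. The list was low in Ly6Glow alone by its sum. Called lower were 8 of 11 in Ly6Ghi over NL (36.6% of all tested genes) and 10 of 11 in Ly6Glow over NL (40.8%). In Ly6Glow over Ly6Ghi 8 of 11 were called lower (16.0%). The 10 monocyte and macrophage markers, led by Mrc1 in NL and Csf1r elsewhere, summed to 1040, 1030 and 1040 CPM in NL, 620, 605 and 612 CPM in Ly6Ghi and 530, 513 and 511 CPM in Ly6Glow. Of these 10, 6 were called lower and 1 higher in Ly6Ghi over NL (36.6% and 26.3% of all tested genes). In Ly6Glow over NL 7 were called lower and 1 higher (40.8% and 28.6%). By mean CPM Il7r led the T and NK cell markers in NL and Cd3d elsewhere, while by mean FPKM Cd3d led in NL too (24 against 9.54). The 9 of these markers with values summed to 92.5, 94.1 and 90.3 CPM in NL, 52.6, 50.9 and 51.5 CPM in Ly6Ghi and 39.3, 38.7 and 38.3 CPM in Ly6Glow. Of the 8 tested, 6 were called lower in Ly6Ghi over NL and 7 in Ly6Glow over NL (36.6% and 40.8% of all tested genes). Ncr1 and Klrb1c were at or under the floor in Ly6Glow.

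The lists of B cells and of granulocytes other than neutrophils had their highest summed CPM in Ly6Ghi. The 5 B cell markers with values, led by Cd79a in Ly6Ghi and Ly6Glow, summed to 27.4, 28.1 and 29.9 CPM in NL, 46.3, 47.0 and 47.3 CPM in Ly6Ghi and 28.1, 28.7 and 30.0 CPM in Ly6Glow. Of these, 3 were called higher in Ly6Ghi over NL (26.3% of all tested genes) and 1 higher in Ly6Glow over NL (28.6%). In Ly6Glow over Ly6Ghi 5 were called lower (16.0%). The 10 eosinophil, basophil and mast cell markers summed to 70.2, 68.1 and 67.5 CPM in NL, 125, 125 and 118 CPM in Ly6Ghi and 61.2, 61.9 and 59.0 CPM in Ly6Glow. Siglecf led them by mean CPM, but in Ly6Ghi Prg2 (35.4) and Mcpt8 (13.7) were above Siglecf (12) by mean FPKM. Of the 9 tested genes of this list 7 were called higher and 1 lower in Ly6Ghi over NL (26.3% and 36.6%). In Ly6Glow over Ly6Ghi 7 were called lower (16.0%). In Ly6Glow over NL 6 of 9 were also called higher and 1 lower (28.6% and 40.8%), although the sum was not higher. Epx was at or under the floor in NL and Ly6Glow. The 5 erythroid markers with values summed to 14.1, 10.6 and 11.0 CPM in NL, with Hba-a2 the most abundant, and all 5 were at or under the floor in both metastatic groups. Hemoglobin genes share reads with near-identical copies, so that these counts are uncertain.

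**Figure D2:**
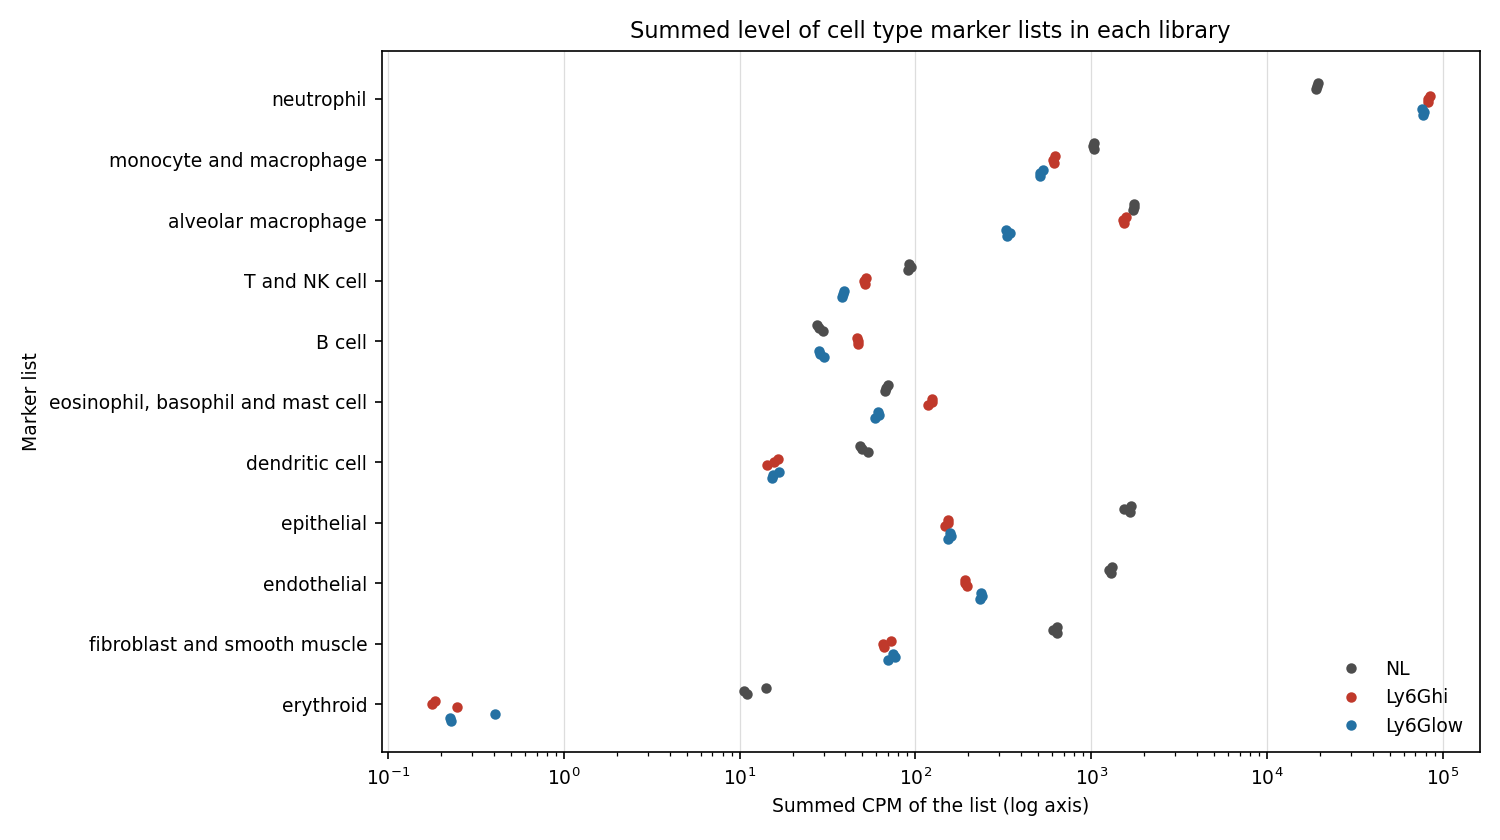
Summed CPM of each cell type marker list (horizontal axis, logarithmic) in each of the 3 libraries of NL, Ly6Ghi and Ly6Glow (points, no error bars). Epithelial sums lie at 1530 to 1680 CPM in NL against 147 to 159 CPM in the metastatic groups, neutrophil sums at 19100 to 19400 CPM against 76200 to 84500 CPM, and alveolar macrophage sums at 326 to 347 CPM in Ly6Glow against 1520 to 1760 CPM in the other groups.

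The contrast of Ly6Glow over Ly6Ghi, which the choice of the genes did not use, asked how the clock genes differ between both neutrophil groups of the same metastatic stage. Of the 10 genes, 1 was called higher (9.34% of all tested genes were) and 1 lower (16.0%), and the libraries did not overlap for 5 (62.1%). These shares were near those of all tested genes, so that they are not a result about the clock genes as a set. Their median log2 fold change was 0, beside -0.04 over all tested genes.

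Per1 was the gene called higher. From 337, 320 and 317 CPM in Ly6Ghi to 528, 533 and 512 CPM in Ly6Glow, its log2 fold change was 0.69 (SE 0.043, 95% interval 0.60 to 0.78, edgeR quasi-likelihood test with Benjamini-Hochberg adjusted p = 3.67e-13), with 3 of 3 Ly6Glow libraries above every Ly6Ghi library. On FPKM the log2 fold change was 0.45, under the fold threshold, and adjusted p-values of Per1 over all alternatives ranged from 2.04e-52 to 2.46e-05. Tef was the gene called lower, from 4.74, 5.02 and 4.77 CPM to 2.27, 3.46 and 3.43 CPM, with all 3 Ly6Glow libraries below every Ly6Ghi library. Its log2 fold change was -0.66 (SE 0.15, 95% interval -0.97 to -0.34, edgeR quasi-likelihood test with Benjamini-Hochberg adjusted p = 0.000782, lower in 3 of 3 Ly6Glow libraries). That call rested on Ly6Glow replicate 1, the lowest library, since without it the log2 fold change was -0.49 and under the threshold (edgeR quasi-likelihood test with Benjamini-Hochberg adjusted p = 0.0112 and a range of 0.000258 to 0.0112 over all alternatives, lower in 2 of 2 remaining Ly6Glow libraries). It was also under it on log2(FPKM + 1), at -0.43, but past it on log2(FPKM + 0.1), at -0.89.

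Nfil3 and Cry1 were higher in all 3 Ly6Glow libraries than in every Ly6Ghi library, by less than the fold threshold. For Nfil3 the log2 fold change was 0.57 (SE 0.036, 95% interval 0.50 to 0.65, edgeR quasi-likelihood test with Benjamini-Hochberg adjusted p = 4.13e-13, higher in 3 of 3 libraries). Nfil3 lay so close to the threshold that it passed it with DESeq2's size factors (0.64), with DESeq2 (0.63), without Ly6Ghi replicate 2 (0.59) and without Ly6Glow replicate 3 (0.59), whereas on log2(FPKM + 1) and log2(FPKM + 0.1) it was well under it (0.34 and 0.35). For Cry1 it was 0.23 (SE 0.056, 95% interval 0.11 to 0.34, edgeR quasi-likelihood test with Benjamini-Hochberg adjusted p = 0.00124, higher in 3 of 3 libraries), and on FPKM its direction turned, to -0.0042 (adjusted p-values from 5.97e-05 to 1 over all alternatives). Per3, with groups that did not overlap in CPM either, had a log2 fold change of 0.37 (95% interval -0.07 to 0.81, edgeR quasi-likelihood test with Benjamini-Hochberg adjusted p = 0.158, higher in 3 of 3 libraries) and was not called. On FPKM its groups overlapped, with differences of 0.026 on log2(FPKM + 1) and 0.089 on log2(FPKM + 0.1).

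For the other 5 genes the libraries of both groups overlapped and no call was made. The 95% interval of the log2 fold change ran from -1.06 to 0.37 for Nr1d1, from -0.50 to 0.32 for Nr1d2 and from -0.98 to 1.16 for Dbp. It ran from -0.94 to 0.27 for Hlf and from -0.45 to 0.20 for Arntl. At 3 to 17 counts per library, a change of Nr1d1 or Dbp by the fold threshold was not resolved, whereas the intervals of Nr1d2 and Arntl lay within it on both sides. All 5 intervals included 0, so that direction was settled for none of these genes. For 4 of them it also changed on leaving out 1 library: Nr1d2 to 0.028, Hlf to 0.015 and Arntl to 4e-04 without Ly6Ghi replicate 3, and Dbp from 0.09 to -0.67 without Ly6Glow replicate 1 (it was also below 0 on log2(FPKM + 0.1)).

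**Figure D3:**
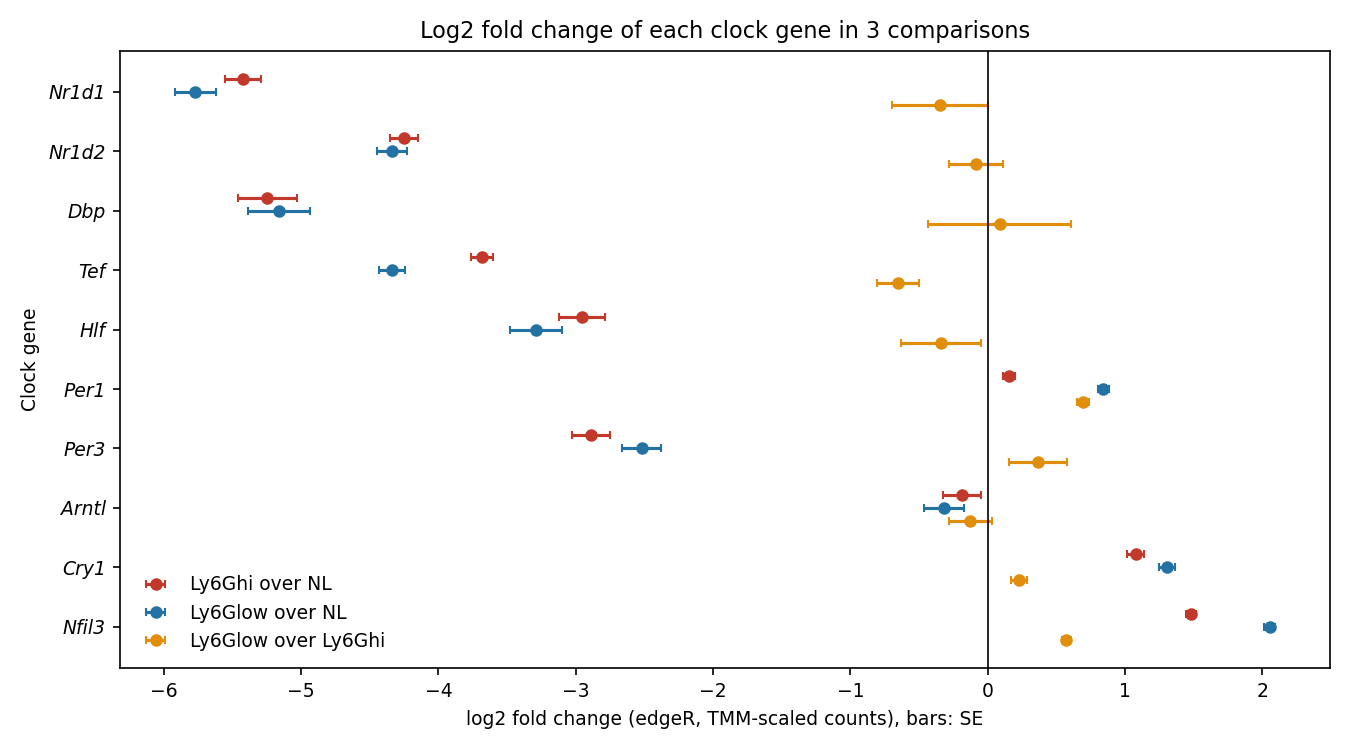
Log2 fold change of each clock gene (horizontal axis, edgeR on TMM-scaled counts; bars are SE, 3 libraries per group) in Ly6Ghi over NL, Ly6Glow over NL and Ly6Glow over Ly6Ghi. Nr1d1 lies at -5.42 and -5.77 and Nfil3 at 1.48 and 2.05 against NL, while Ly6Glow over Ly6Ghi stays between -0.66 (Tef) and 0.69 (Per1); Per1 in Ly6Ghi over NL (0.15) and Cry1 in Ly6Glow over Ly6Ghi (0.23) change sign on FPKM, and Dbp in Ly6Glow over Ly6Ghi (0.09) does so on log2(FPKM + 0.1) but not on log2(FPKM + 1).

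The median log2 fold change of all genes moved with the scaling. The median log2 fold change of the tested genes was -0.04 in Ly6Glow over Ly6Ghi, -0.09 in Ly6Ghi over NL and -0.16 in Ly6Glow over NL with TMM. On log2(FPKM + 0.1) these medians were -0.24, -0.51 and -0.81, on log2(FPKM + 1) they were -0.14, -0.33 and -0.49, and upper-quartile scaling moved those against NL to -0.28 and -0.35. Relative to the median, Nr1d1 was at -5.34 with TMM and -5.00 on log2(FPKM + 0.1) in Ly6Ghi over NL, and Nfil3 at 1.57 and 1.54. Cry1 was at 1.16 and 1.12 on the same scales, Arntl at -0.10 and -0.13 and Per1 at 0.24 and 0.21. In Ly6Glow over Ly6Ghi, Per1 lay 0.73 above the median with TMM and 0.70 above it on log2(FPKM + 0.1), and Tef was at -0.61 and -0.65 relative to it. On log2(FPKM + 1) the distances from the median were smaller for the low genes, with Nr1d1 at -3.46 and Hlf at -1.14 (-2.86 with TMM) in Ly6Ghi over NL and Tef at -0.30 in Ly6Glow over Ly6Ghi. There Nfil3 was at 1.34, Cry1 at 0.89 and Per1 at 0.02 in Ly6Ghi over NL, and Per1 at 0.59 in Ly6Glow over Ly6Ghi. The share of calls that were higher also moved, from 36.9% in Ly6Glow over Ly6Ghi, 41.8% in Ly6Ghi over NL and 41.2% in Ly6Glow over NL to 14.2%, 21.8% and 14.8% on log2(FPKM + 1).

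**Figure D4:**
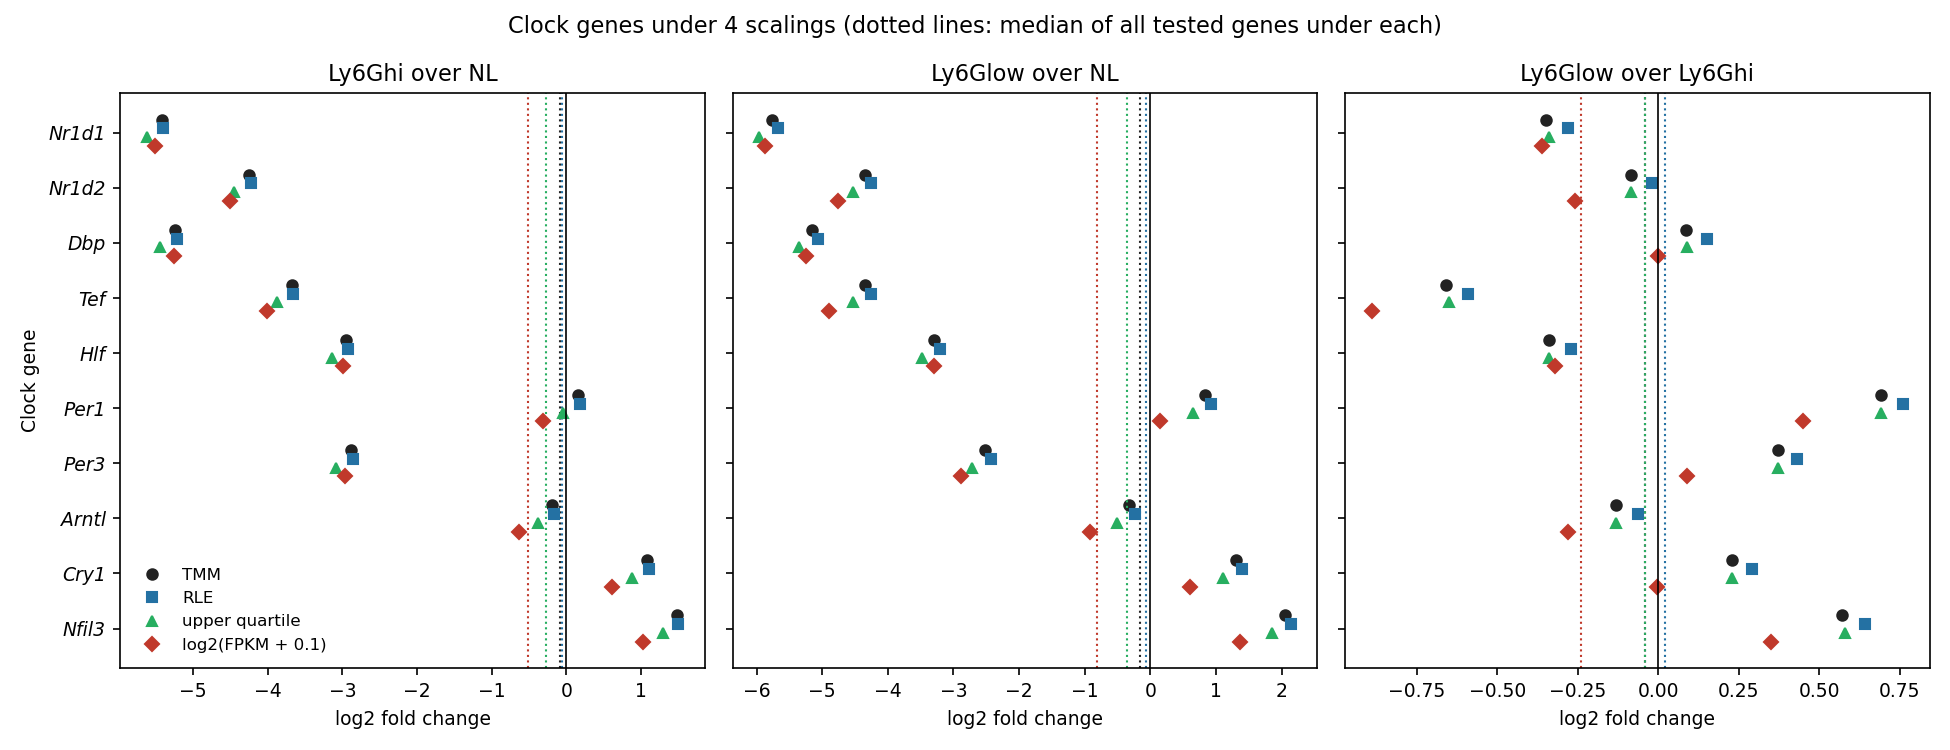
Log2 fold change of each clock gene (horizontal axis) in 3 comparisons under 4 scalings (TMM, RLE and upper quartile on counts, and log2(FPKM + 0.1); no error bars), with dotted lines at the median of all tested genes under each. The 6 low genes stay far left of every median against NL, whereas Per1 in Ly6Ghi over NL (0.15 with TMM) turns to -0.04 with upper quartile and -0.31 on log2(FPKM + 0.1), and Cry1 (0.23) and Dbp (0.09) in Ly6Glow over Ly6Ghi turn to -0.0042 and -0.00041 on log2(FPKM + 0.1).

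Of 11 other core clock genes, the transcription factors and repressors of the same loops, 9 were tested, and Npas2 and Rorb were too low. In Ly6Ghi over NL 1 of the 9 was called higher and 4 lower (26.3% and 36.6% of all tested genes were), in Ly6Glow over NL 2 higher and 4 lower (28.6% and 40.8%), and in Ly6Glow over Ly6Ghi 1 lower (16.0%). On log2(FPKM + 1) the counts against NL were 0 higher and 5 lower in both comparisons. None was called higher in the last comparison by edgeR's quasi-likelihood test, and the count was also 0 at an unadjusted p, with DESeq2 and with limma on FPKM. List medians were -0.36, -0.30 and 0.09 in that order, beside -0.09, -0.16 and -0.04 over all tested genes. Bhlhe41, an E-box repressor, had 41.9, 39.8 and 39.4 CPM in NL, 7.87, 7.50 and 8.05 CPM in Ly6Ghi and 1.22, 1.05 and 0.991 CPM in Ly6Glow. The groups formed separate steps with Ly6Glow lowest, and the log2 fold change in Ly6Glow over Ly6Ghi was -2.84 (SE 0.163, edgeR quasi-likelihood test with Benjamini-Hochberg adjusted p = 8.26e-14, lower in 3 of 3 libraries). Against NL it fell by 2.37 in Ly6Ghi and by 5.21 in Ly6Glow on the log2 scale. The alveolar macrophage markers moved in the same comparisons, with 8 of 11 called lower in Ly6Glow over Ly6Ghi and medians of -2.57 there, -1.95 in Ly6Ghi over NL and -4.79 in Ly6Glow over NL, and their part in the fall of Bhlhe41 was not tested. Rora, which encodes an activator at ROR elements, fell too, to 6.09, 6.79 and 7.30 CPM in Ly6Ghi and 6.42, 7.22 and 7.85 CPM in Ly6Glow from 33.5, 39.4 and 33.8 CPM in NL.

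Cry2 parted from Cry1 as Per3 did from Per1. It had 17.2, 14.5 and 17.1 CPM in NL, 4.18, 5.55 and 4.77 CPM in Ly6Ghi and 4.95, 4.67 and 4.27 CPM in Ly6Glow, with log2 fold changes of -1.74 and -1.81 against NL (edgeR quasi-likelihood test with Benjamini-Hochberg adjusted p = 7.13e-14 and 1.33e-13, lower in 3 of 3 libraries of each group). Per2 had 79.8, 74.1 and 81.5 CPM in NL, 80.3, 84.6 and 79.2 CPM in Ly6Ghi and 114, 115 and 117 CPM in Ly6Glow. Ly6Glow stood apart while Ly6Ghi overlapped NL, and its log2 fold change of 0.50 over Ly6Ghi stayed under the fold threshold. Against NL the direction of Per2 turned on FPKM, where NL (17.87, 17.27 and 18.39) lay above Ly6Ghi (13.21, 13.88 and 12.99) and Ly6Glow (16.08, 15.94 and 16.24). Clock, the partner of Arntl, had 34.0, 39.5 and 34.2 CPM in NL, 27.1, 28.6 and 27.9 CPM in Ly6Ghi and 29.2, 29.5 and 29.0 CPM in Ly6Glow, and on counts it passed the fold threshold in no comparison. On FPKM Clock had 4.56, 5.37 and 4.62 in NL and 2.41 to 2.81 in the metastatic libraries, a wider difference. Arntl2, the paralog of Arntl, was called higher in both comparisons with NL (log2 fold changes 0.77 and 0.98), on levels of 0.719, 1.41 and 0.721 CPM in NL against 1.55 to 2.06 CPM. The call in Ly6Ghi over NL was lost without NL replicate 1 and without NL replicate 3, leaving 0 of 9 called higher. Bhlhe40, called higher in Ly6Glow over NL at 0.63, changed sign on FPKM, to -0.074, and was below NL on FPKM in Ly6Ghi as well.

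**Figure D5:**
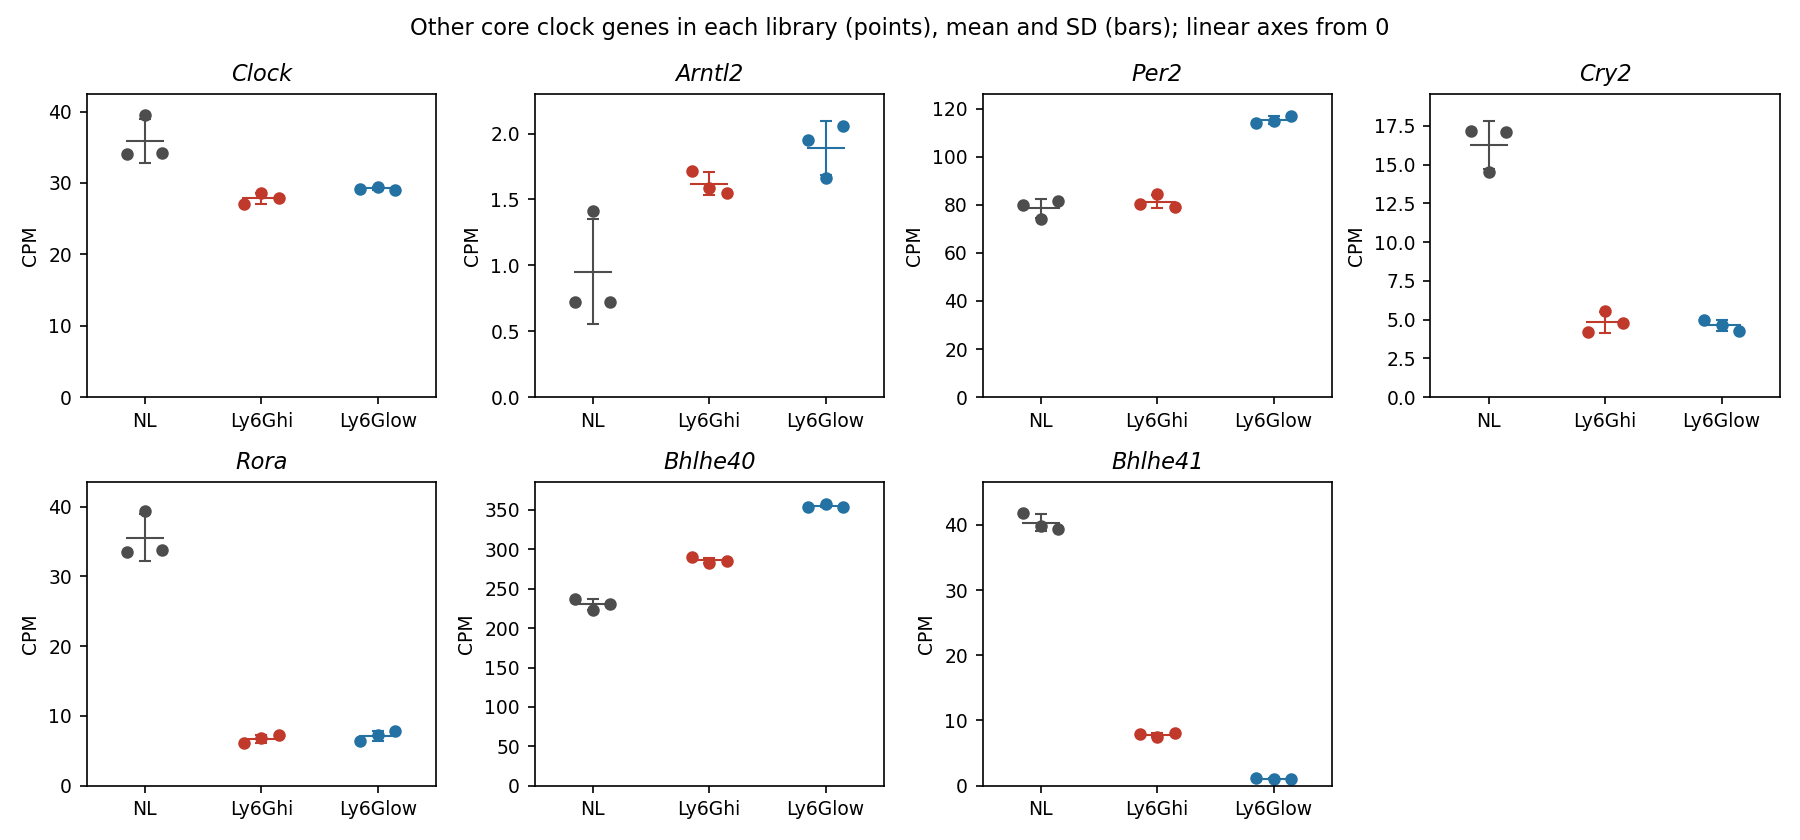
Level of each of 7 other core clock genes in CPM (vertical axis, linear from 0) in the 3 libraries of NL, Ly6Ghi and Ly6Glow (points), with the mean and SD as bars (n = 3). Bhlhe41 steps from 39.4 to 41.9 CPM in NL to 7.50 to 8.05 CPM in Ly6Ghi and 0.991 to 1.22 CPM in Ly6Glow, Rora and Cry2 are low in both metastatic groups, and Bhlhe40 (354 to 357 CPM in Ly6Glow against 223 to 237 CPM in NL) and Per2 (114 to 117 CPM against 74.1 to 81.5 CPM) are higher in Ly6Glow on this scale, while on FPKM both are lower in both metastatic groups than in NL.

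Kinases, ubiquitin ligases and cofactors that act on clock proteins were a list of 22 genes, 21 of them tested. Called higher were 5 and lower 1 in Ly6Ghi over NL (26.3% and 36.6% of all tested genes) and 10 and 1 in Ly6Glow over NL (28.6% and 40.8%), with medians of 0.29 and 0.50 beside -0.09 and -0.16 over all tested genes. Scaling decided these counts, which were 2 higher and 3 lower, and 0 higher and 4 lower, on log2(FPKM + 1), and 12 higher and 0 lower in Ly6Glow over NL with RLE. Wdr5, a histone methylation cofactor, had the largest increase in Ly6Ghi over NL, from 26.1, 24.7 and 25.0 CPM to 65.0, 65.7 and 62.1 CPM (log2 fold change 1.35). The acetyltransferase gene Ep300 rose from 162, 158 and 160 CPM in NL to 353, 330 and 355 CPM in Ly6Glow (1.11), whereas the deacetylase gene Sirt1 fell from 26.9, 30.4 and 29.2 CPM to 17.9, 18.4 and 19.9 CPM (-0.62). In Ly6Glow over Ly6Ghi 0 of 21 were called by edgeR's quasi-likelihood test, and likewise 0 at an unadjusted p, with DESeq2 and with limma on FPKM (9.34% and 16.0% of all tested genes were called higher and lower), with a median of 0.24. Csnk1d and Csnk1e, the casein kinase genes that phosphorylate Period proteins, had log2 fold changes of 0.34 and 0.45 there.

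Of 15 clock output genes with a daily rhythm in many mouse tissues, 4 were called higher and 5 lower in Ly6Ghi over NL (26.3% and 36.6% of all tested genes), 5 and 4 in Ly6Glow over NL (28.6% and 40.8%), and 7 and 2 in Ly6Glow over Ly6Ghi (9.34% and 16.0%). Medians were -0.32, 0.46 and 0.44, beside -0.09, -0.16 and -0.04 over all tested genes, and on log2(FPKM + 1) the counts were 3 and 8, 2 and 6, and 3 and 1. Pfkfb3, a glycolytic regulator, had 201, 198 and 197 CPM in NL, 478, 463 and 475 CPM in Ly6Ghi and 1160, 1160 and 1140 CPM in Ly6Glow. It formed separate steps, with a log2 fold change of 1.29 in Ly6Glow over Ly6Ghi (SE 0.0314, edgeR quasi-likelihood test with Benjamini-Hochberg adjusted p = 3.8e-21, higher in 3 of 3 libraries). Noct, a rhythmic phosphatase gene, had 158, 152 and 155 CPM in Ly6Ghi, 311, 320 and 329 CPM in Ly6Glow and 154, 161 and 157 CPM in NL, so that Ly6Glow alone was high, whereas on FPKM Ly6Ghi (63.72, 61.23 and 62.83) also lay below NL (84.65, 91.63 and 87.82). Wee1, a cell cycle kinase gene with E-boxes in its promoter, fell in all 3 comparisons, from 5.61, 5.84 and 4.87 CPM in NL to 2.65, 1.89 and 1.24 CPM in Ly6Ghi and 0.65, 0.903 and 0.762 CPM in Ly6Glow. Tspan4 had 18.4, 18.8 and 19.8 CPM in NL and 1.14 to 2.79 CPM in the metastatic libraries.

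Of 14 genes induced by glucocorticoids, which share Fkbp5, Tsc22d3 and Klf9 with the rhythmic list, 4 were called higher and 8 lower in Ly6Ghi over NL (26.3% and 36.6% of all tested genes), 5 and 8 in Ly6Glow over NL (28.6% and 40.8%), and 3 and 2 in Ly6Glow over Ly6Ghi (9.34% and 16.0%). The medians of -0.68, -0.87 and -0.15 stood beside -0.09, -0.16 and -0.04 over all tested genes, and the counts on log2(FPKM + 1) were 4 and 8, 3 and 8, and 2 and 3. Members of the list went both ways against NL. Fkbp5 rose from 32.3, 28.7 and 31.0 CPM in NL to 82.1, 80.5 and 82.0 CPM in Ly6Ghi, and Tsc22d3 from 75.0, 71.2 and 72.7 CPM to 212, 205 and 207 CPM. Zbtb16 fell from 23.7, 24.6 and 27.1 CPM in NL to 7.20, 7.56 and 7.18 CPM, and the metallothionein gene Mt2 from 34.4, 31.3 and 28.0 CPM to 8.67, 9.74 and 8.23 CPM. In Ly6Glow Mt2 was lower still, at 1.30, 1.88 and 2.44 CPM.

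Of 6 genes that REV-ERB proteins repress in macrophages, 1 was called higher and 4 lower in Ly6Ghi over NL (26.3% and 36.6% of all tested genes), 2 and 3 in Ly6Glow over NL (28.6% and 40.8%) and 2 and 0 in Ly6Glow over Ly6Ghi (9.34% and 16.0%). List medians were -1.17, -0.55 and 0.11, beside -0.09, -0.16 and -0.04 over all tested genes, and the counts against NL on log2(FPKM + 1) were 1 and 5, and 1 and 4. The count of 0 lower by edgeR's quasi-likelihood test was also 0 at an unadjusted p and with DESeq2, and 1 with limma on log2(FPKM + 1). Il6 had 34.5, 39.2 and 34.0 CPM in NL, 13.2, 16.1 and 16.2 CPM in Ly6Ghi and 10.2, 8.65 and 12.6 CPM in Ly6Glow, and Cx3cr1 had 12.7, 11.9 and 12.9 CPM in NL against 2.18 to 2.71 CPM. Mmp9 had 1130, 1000 and 1070 CPM in NL, 3300, 3370 and 3270 CPM in Ly6Ghi and 3930, 3930 and 3840 CPM in Ly6Glow. Nlrp3, the inflammasome sensor, had 651, 614 and 647 CPM in NL, 270, 270 and 271 CPM in Ly6Ghi and 642, 655 and 649 CPM in Ly6Glow. Ly6Ghi was thus the low group for Nlrp3. Ly6Glow overlapped NL on this scale but lay below it on FPKM, with 133.22, 135.36 and 134.69 against 217.38, 209.19 and 217.42. For Nlrp3 in Ly6Glow over Ly6Ghi the counts gave a log2 fold change of 1.26 (SE 0.0336, edgeR quasi-likelihood test with Benjamini-Hochberg adjusted p = 2.23e-20, higher in 3 of 3 libraries). Cx3cr1 and Mmp9 are also markers of monocytes and neutrophils in the lists above.

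Of 8 surface and chemokine genes of diurnal neutrophil ageing, 4 were called higher and 1 lower in Ly6Ghi over NL (26.3% and 36.6% of all tested genes), 6 and 1 in Ly6Glow over NL (28.6% and 40.8%) and 3 and 0 in Ly6Glow over Ly6Ghi (9.34% and 16.0%). The 0 came from edgeR's quasi-likelihood test and was also 0 at an unadjusted p, with DESeq2 and with limma on FPKM. Medians of 0.59, 1.07 and 0.34 stood beside -0.09, -0.16 and -0.04 over all tested genes, and on log2(FPKM + 1) the counts were 3 and 2, 4 and 1, and 2 and 0. Cxcr2 had 509, 530 and 509 CPM in NL, 1730, 1720 and 1690 CPM in Ly6Ghi and 2660, 2680 and 2800 CPM in Ly6Glow. It rose in steps, while Icam1 fell from 432, 408 and 429 CPM in NL to 93.2, 91.4 and 92.1 CPM in Ly6Ghi and 104, 108 and 107 CPM in Ly6Glow. Cxcr4, which aged neutrophils carry, was called in no comparison by edgeR's quasi-likelihood test with TMM. Its log2 fold changes were 0.24 in Ly6Ghi over NL and 0.53 in Ly6Glow over NL, which turned on FPKM (105.31 to 111.65 in the metastatic libraries against 118.96 to 130.48 in NL), and 0.28 in Ly6Glow over Ly6Ghi. With RLE 7 of the 8 genes were called higher and 1 lower in Ly6Glow over NL, so that Cxcr4 was among those called there.

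Digestion can induce immediate early and heat shock genes, and of 14 such genes 5 were called higher and 4 lower in Ly6Ghi over NL (26.3% and 36.6% of all tested genes), 5 and 3 in Ly6Glow over NL (28.6% and 40.8%) and 3 and 4 in Ly6Glow over Ly6Ghi (9.34% and 16.0%). On log2(FPKM + 1) the counts were 2 and 4, 1 and 6, and 1 and 4, so that the balance in both comparisons with NL turned with the scaling. List medians on counts were 0.30, 0.23 and 0.17, beside -0.09, -0.16 and -0.04 over all tested genes. Fosb had 733, 651 and 705 CPM in NL, 145, 147 and 144 CPM in Ly6Ghi and 201, 205 and 207 CPM in Ly6Glow, and Egr1 had 1150, 1100 and 1150 CPM in NL, 301, 297 and 294 CPM in Ly6Ghi and 566, 565 and 584 CPM in Ly6Glow. These immediate early genes were thus highest in NL, while others went the other way. Junb had 1400, 1200 and 1380 CPM in NL, 1680, 1670 and 1660 CPM in Ly6Ghi and 2880, 3000 and 2720 CPM in Ly6Glow, and Zfp36 had 1010, 907 and 980 CPM in NL, 1790, 1780 and 1760 CPM in Ly6Ghi and 2510, 2550 and 2520 CPM in Ly6Glow. Both were highest in Ly6Glow on FPKM too, although Junb in Ly6Ghi then overlapped NL and averaged below it. Hspa1b was highest in Ly6Ghi, with 1290, 1320 and 1290 CPM against 636, 663 and 621 CPM in Ly6Glow and 372, 327 and 367 CPM in NL. Hspa1a and Hspa1b are near-identical copies, so that their counts are uncertain. The part of these genes in the differences of the clock genes was not tested.

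For Nr1d1 and Dbp, likeness to other genes uses the values that chose them and is a description alone. The genes most like Nr1d1, by the root-mean-square difference of centered log2 CPM over the 9 libraries, were Cbr2 (0.408), Abi3bp (0.428), Tnxb (0.461), Hbb-b1 (0.468) and Hba-a2 (0.474). Cbr2 averaged 123 CPM in NL, 4.72 CPM in Ly6Ghi and 3.75 CPM in Ly6Glow, and Abi3bp, which is on the fibroblast list, averaged 32.7, 1.14 and 1.10 CPM. For Dbp they were Cd163l1 (0.41), Frem1 (0.429), Lama3 (0.456), Lgi3 (0.476) and Krt5 (0.479), with Lama3 at 22.7, 1.27 and 1.30 CPM in the same order of groups. Of these, Hba-a2 and Krt5 averaged 0 CPM in both metastatic groups, Hbb-b1 0.162 and 0 CPM, Frem1 0.0814 and 0.0796 CPM and Cd163l1 0.282 and 0.211 CPM. Their distances and ranks therefore depend on the prior count of 2 added before taking the log2. Arntl was most like Fam3a (0.0734), Ehmt1 (0.0879), Hsd17b4 (0.0935), Btbd6 (0.0951) and Gimap3 (0.096). No clock gene was among the 5 nearest of any of the 3.

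Exons of some of these genes overlap those of a gene on the opposite strand, in the GENCODE annotation of mm10. Nr1d1 shares 263 bases (8.55% of its exonic bases) with Thra, Dbp 539 bases (18%) with Sphk2, Tef 193 bases (2.45%) with Gm17597 and Arntl 33 bases (0.439%) with Gm45355, and the other 6 share none. The libraries were made strand-specific, but whether counting used the strand was not given in the sources used here, so that reads of these stretches may not be told apart. Thra, named here for its position, had 35.1, 28.9 and 32.0 CPM in NL, 8.37, 8.91 and 8.79 CPM in Ly6Ghi and 7.31, 6.32 and 6.17 CPM in Ly6Glow, a smaller difference than that of Nr1d1. Sphk2 had 50.6, 44.9 and 51.2 CPM in NL, 80.0, 74.3 and 71.2 CPM in Ly6Ghi and 105, 107 and 104 CPM in Ly6Glow. It was higher in both metastatic groups, where Dbp was low.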

How the data were processed

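The members and gene lists were chosen with earlier results of these data known. For 9 libraries the authors deposited estimated counts per gene, without normalization, and FPKM values, fragments scaled to transcript length and depth. The aligner and the counting program were not given in the sources used here, and the build was mm10 per the submitters' processing notes. Of 22064 genes listed, 3739 were blank. Estimated counts, of which 37.9% were whole (within 1e-09), were rounded. In R 4.3.3, edgeR 4.0.16 (TMM, filterByExpr by group, robust quasi-likelihood F test, all 9 libraries in 1 model of group) gave log2 fold changes, with p-values adjusted by Benjamini-Hochberg over 14108 genes. Calls needed an adjusted p no higher than 0.05 and a log2 fold change of more than 0.58 in either direction. P-values measure only the spread between these libraries, which may be technical. An exact permutation test of 3 against 3 libraries cannot give a two-sided p below 0.1. Named were all 10 members, and per list and comparison up to 4 called genes in each direction (largest changes with at least 1 CPM in the higher group) or examples of no call. Also named were the marker highest in mean CPM, markers near 0, and the 5 tested genes nearest to Nr1d1, Dbp and Arntl. Alternatives were DESeq2's size factors (RLE), upper-quartile scaling, DESeq2 1.42.0, no filter, at least 10 counts in every library of a group, the 6 libraries of a comparison alone, unadjusted p, a fold threshold of 1, limma 3.58.1 on log2(FPKM + 1) with and without a filter (at least 0.1 in 3 libraries) or log2(FPKM + 0.1), a replicate block, and leaving out each library. Code was tested on simulated data. Some genes of the lists are counted but not reported by name here. Promoter windows and gene names came from RefSeq, and motif positions count from the annotated start site.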

Additional observations from a re-analysis of the deposited data

How the results depend on the processing

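Against NL, the 6 low genes (Nr1d1, Nr1d2, Dbp, Tef, Hlf, Per3) and Cry1 and Nfil3 kept their direction under all alternatives run. In Ly6Glow over Ly6Ghi the number of genes called went from 3571 to 1304 with a fold threshold of 1 and to 2246 and 2245 on log2(FPKM + 1) with and without a filter. Clock genes called higher went from 1 to 2 with RLE and DESeq2, to 0 with a fold threshold of 1 and in all 3 FPKM fits, and ranged from 1 to 2 on leaving out a library (2 without Ly6Ghi replicate 2 or Ly6Glow replicate 3, with Nfil3). Those called lower went from 1 to 0 with a fold threshold of 1 and in both log2(FPKM + 1) fits, and ranged from 0 to 1 (0 without Ly6Glow replicate 1). Other core clock genes called higher in Ly6Ghi over NL went from 1 to 0 with upper-quartile scaling, a fold threshold of 1 and all 3 FPKM fits, and ranged from 0 to 1 (0 without NL replicate 1 or 3). In Ly6Glow over NL they went from 2 to 3 with RLE, DESeq2 and without NL replicate 3, to 1 with upper-quartile scaling and to 0 with a fold threshold of 1 and all 3 FPKM fits. Directions that changed in Ly6Glow over Ly6Ghi were those of Cry1, to -0.004 on log2(FPKM + 1) and -0.0042 on log2(FPKM + 0.1), and of Dbp, to -0.00041 on log2(FPKM + 0.1). On leaving out a library, Dbp ranged from -0.67 to 0.47, Nr1d2 from -0.18 to 0.028, Hlf from -0.50 to 0.015 and Arntl from -0.22 to 4e-04. In Ly6Glow over NL on log2(FPKM + 1) and log2(FPKM + 0.1), Bhlhe40 was at -0.074, Csnk2a1 at -0.084 and -0.088, Gsk3b at -0.10, Crebbp at -0.0046 and -0.0049, Ier2 at -0.0047 and Hspa1a at -0.11. The fold threshold acts by its construction, and the cause of the other changes was not tested. Correlations of same-numbered libraries, from -0.068 to 0.077, showed no pairing by replicate number. They cannot exclude that both metastatic groups came from the same mice, since pooled mice would also leave them low. A replicate block called 3531 genes in Ly6Glow over Ly6Ghi and changed no call of a clock gene. Nr1d1 and Dbp gave no value in Ly6Glow over Ly6Ghi with the 6 libraries alone, being filtered out. Depth limits Dbp and Nr1d1 most, at 3 to 17 counts per metastatic library.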
